A study of Mus musculus with 38 samples.

Results

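The genes described here are 47 mouse genes of mitosis and chromosome segregation, out of 55487 genes in each count table. They were taken from a fixed list of symbols, each of which matched 1 Ensembl gene, and the rule itself uses no measured value, although the list was drawn up with earlier results of these data known. All 47 passed the filter on low counts in every comparison, so no member was left untested. They were grouped by role: 7 kinases and cyclins of mitotic entry, 4 subunits of the chromosomal passenger complex, 4 genes of the spindle assembly checkpoint, 4 anaphase triggers, 7 centromere and kinetochore genes, 7 spindle motors and assembly factors, 7 genes of the midzone and cytokinesis, and 7 genes of chromosome structure.

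Poly(A) RNA was sequenced from 3 kinds of mouse cells: BV2, an immortalised microglial cell line; GL261, a glioma cell line; and bone-marrow-derived macrophages (BMDM), which are primary cells. Normoxia was 21% oxygen and hypoxia was below 0.1% oxygen, for 16 h. In the first table BV2 and GL261 came from monocultures and from cultures mixed at 2 GL261 cells for each BV2 cell, and in the second table BMDM came from monocultures and from cultures mixed at 1 GL261 cell for each BMDM. In the third table BV2 and BMDM, without GL261, received the solvent DMSO in normoxia, DMSO in hypoxia, or the histone deacetylase inhibitor panobinostat (10 nM) while hypoxic; no panobinostat group in normoxia was analysed here. There were 38 libraries in 18 groups, 16 groups of 2 and 2 groups (BMDM in co-culture) of 3. The BV2 culture medium held 2% serum and that of BMDM 10%. All cells were fixed with 3% glyoxal before RNA was isolated, and each line was 1 line, so the replicates describe that line and not independent lines. The labels speak of biological replicates without naming cultures or animals, and p-values measure the spread between these libraries.

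During mitosis a cell condenses its chromosomes, attaches them to a spindle and divides. Cdk1 with cyclin B, encoded by Ccnb1 and Ccnb2, starts the process, the spindle checkpoint holds it until every kinetochore is attached, and the anaphase-promoting complex with its activator Cdc20 then releases the chromatids. The RNAs of most of these genes accumulate late in the cell cycle, under the activators B-Myb (Mybl2) and Foxm1, and are repressed in resting cells by the DREAM complex, which contacts promoters through a short element called the CHR, often near CCAAT boxes. Summed levels of such genes are commonly used as a measure of how many cells of a population are cycling. In bulk RNA, fewer cells in mitosis and less RNA per cell cannot be told apart.

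Library totals ran from 9634700 to 27238933 counts. Levels below are CPM, counts scaled to a common library size, here after TMM scaling within 1 cell type of 1 table. All 14 macrophage and microglia markers were detected in every BV2 and BMDM library, and their sum was at most 68.3 CPM in GL261, against at least 1435 CPM elsewhere. In GL261 the glial lineage markers summed to between 2464 and 4088 CPM. Of 10 hypoxia response genes, 9 or 10 were called higher in hypoxia (edgeR adjusted p under 0.05) in each BV2 and GL261 comparison. So were 9 in both BMDM comparisons of the second table, against 1 in BMDM of the third. In that last comparison only 0.483% of all tested genes were called. The summed level of the 10 genes still went from 3754 and 1650 CPM in normoxia to 12296 and 10277 CPM in hypoxia. The low count there therefore does not show a missing hypoxia response. The BMDM of the third table stood apart. Their fibroblast markers summed to between 3007 and 24482 CPM, against 68.7 to 584 CPM in BMDM of the second table, and their macrophage markers went from 33127 and 21347 CPM in normoxia to 5671 and 13894 CPM in hypoxia and 1435 and 5612 CPM with panobinostat. Their mitotic gene sum also differed between libraries of 1 group, at 1150.4 and 5524 CPM in the normoxic libraries. The biological coefficient of variation was 0.381 there, against 0.0958 in BV2 and 0.133 in GL261 of the first table, 0.222 in BMDM of the second, and 0.205 in BV2 of the third.

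RefSeq start windows (GRCm38.p6, 250 bases before to 50 bases after an annotated start) were found for 39 of the 47 genes, in 41 windows. No window was matched for Ccna2, Cdc25c, Aurkb, Incenp, Spc24, Tpx2, Kif20a and Smc4. The CHR, searched as TTTGAA or TTCGAA on both strands, was present in 33 of 41 windows (80.5%), against 19.2% of all 32851 windows and 17.6% of the 21263 windows of protein-coding genes. CCAAT, on both strands, was present in 32 of 41 (78.0%), against 37.4% of all windows. Both were present in 73.2%, against 7.52% of all windows. An E2F site, searched as TTTCCCGC, TTTCGCGC, TTTGCCGC or TTTGGCGC on both strands, was present in 7.32%, against 2.26%. No motif contains another, neighbouring matches may share bases, and a match of letters is a description, not a bound site. The CHR was present in 3 of 18 windows (16.7%) of a list of core subunits of the anaphase-promoting complex with Fzr1 and Ube2s. It was present in 0 of 7 windows of G1 cyclins and kinases. Of a panel of 12 members fixed by role, 9 had a window with a motif, and the 5 with a CHR within the 130 bases before the start are shown to let a reader see the elements most members share. Each line gives those bases, 5′ to 3′ on the gene's strand, with CHR and CCAAT letters (either strand) in capitals. They lie at chr10:69352913-69353042 (minus strand, Cdk1), chr4:118437344-118437473 (minus, Cdc20), chr19:37376252-37376381 (plus, Kif11), chr11:99024190-99024319 (minus, Top2a) and chr7:135716380-135716509 (minus, Mki67), just before the first exon of each RefSeq model; the Cdk1 and Cdc20 stretches reach into the longer GENCODE models of these genes.
Cdk1: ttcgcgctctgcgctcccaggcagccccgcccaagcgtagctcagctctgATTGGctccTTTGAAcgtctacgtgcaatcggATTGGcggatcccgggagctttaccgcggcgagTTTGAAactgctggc
Cdc20: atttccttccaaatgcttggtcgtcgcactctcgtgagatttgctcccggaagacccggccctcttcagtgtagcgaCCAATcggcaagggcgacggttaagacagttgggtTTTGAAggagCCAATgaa
Kif11: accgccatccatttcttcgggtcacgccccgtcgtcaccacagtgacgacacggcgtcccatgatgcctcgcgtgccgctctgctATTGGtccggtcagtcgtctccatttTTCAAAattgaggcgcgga
Top2a: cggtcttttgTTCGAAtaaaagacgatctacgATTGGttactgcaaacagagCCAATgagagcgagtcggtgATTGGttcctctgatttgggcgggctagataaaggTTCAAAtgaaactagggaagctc
Mki67: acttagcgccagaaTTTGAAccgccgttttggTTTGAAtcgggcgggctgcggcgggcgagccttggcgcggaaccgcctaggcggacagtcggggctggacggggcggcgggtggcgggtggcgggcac
The Cdk1 stretch held 2 CHR and 2 CCAAT matches, Cdc20 1 and 2, Kif11 1 and 1, Top2a 2 and 3, and Mki67 2 and 0. Most CCAAT matches lay before the start, with a median at -74.5 bases, whereas CHR matches were spread around it, with a median at -10.0 bases. The windows of Pttg1, Birc5, Mad2l1, Nuf2, Nusap1 and Ncaph held neither motif.

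**Figure D1:**
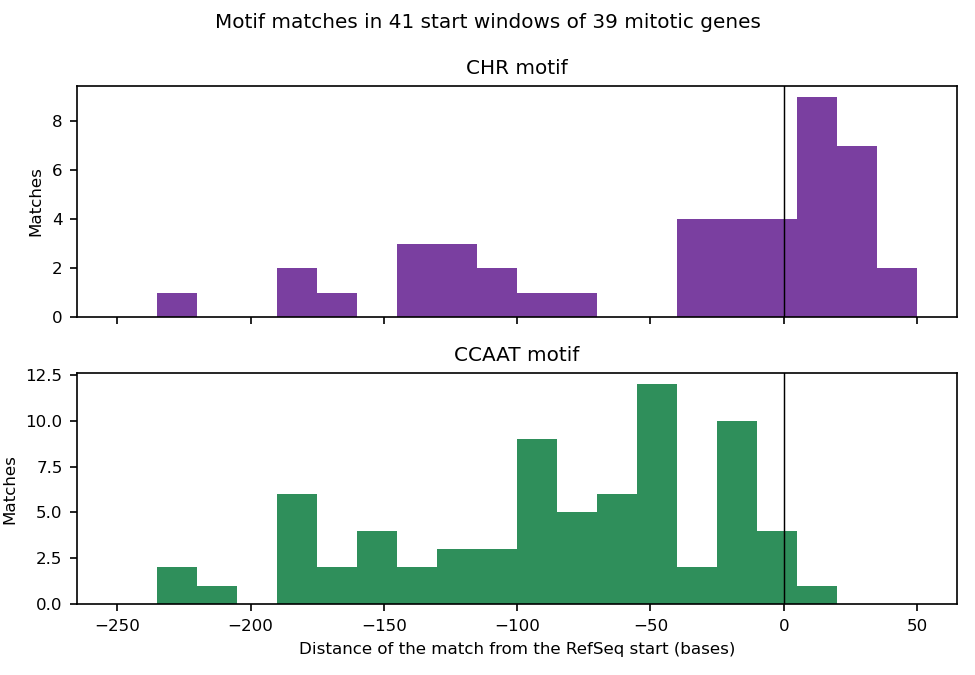
Distance in bases from the RefSeq start (vertical line at 0) of each CHR match (top) and CCAAT match (bottom) in the 41 windows of 39 mitotic genes; bars count matches in steps of 15 bases. CCAAT matches sit mostly before the start, with a median at -74.5 bases, and many CHR matches lie near or after it.

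In BV2 grown alone, nearly the whole mitotic set was lower in hypoxia. The summed level of the 47 genes was 8808 and 9313 CPM in the 2 normoxic libraries and 3301 and 3079 CPM in the 2 hypoxic ones, so 35.2% of the mean was left. By edgeR's quasi-likelihood F test with Benjamini-Hochberg adjustment over all genes (threshold 0.05), 46 members fell and 1 did not pass, where 61.9% of all 14432 tested genes were called and 31% were called lower. The median log2 fold change of the members was -1.66, against 0.00 for all genes. The levels of these 46 did not overlap between the groups, but the share of all genes without overlap was not counted.

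**Figure D2:**
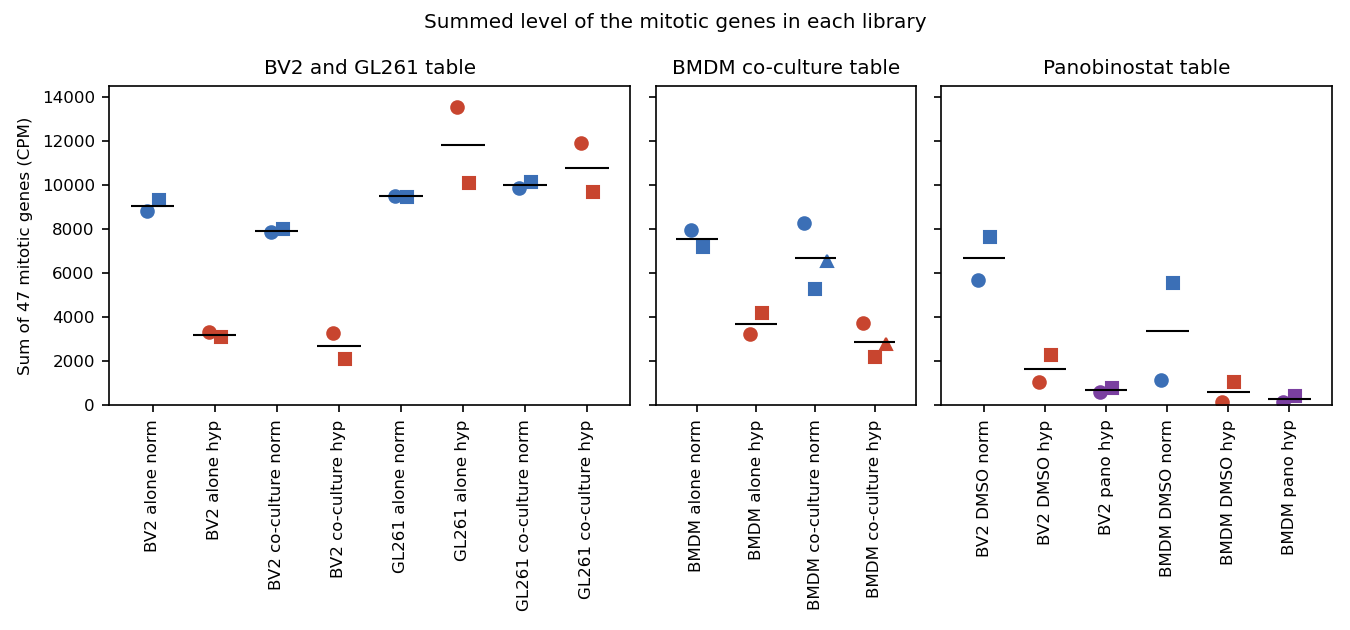
Sum of the 47 mitotic genes in each library (CPM, linear axis from 0), with circles, squares and triangles for replicates 1, 2 and 3, bars for group means, blue for normoxia, red for hypoxia and purple for panobinostat in hypoxia. Hypoxic BV2 and BMDM libraries lie below every normoxic library of their own culture and table, while all GL261 libraries lie between 9454 and 13524 CPM.

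Mitotic entry fell in BV2 with all 7 of its genes. Plk1, the kinase that drives centrosome maturation and mitotic entry, fell most of all members. It was at 144 and 137 CPM in normoxia and 16.3 and 15.4 CPM in hypoxia (log2 fold change -3.14 ± 0.18 (SE), edgeR adjusted p = 8.93e-10). Values after ± are standard errors of log2 fold changes unless an SD is named. Ccnb1 went from 230.2 and 235 to 48.2 and 45.4 CPM, a log2 fold change of -2.32 ± 0.15. Cdk1, its kinase partner, went from 129 and 115 to 48.4 and 35.9 CPM (-1.54 ± 0.16), so the cyclin fell further than the kinase in point estimate. The anaphase triggers fell with 4 of 4. Among them Cdc20 went from 243 and 253 to 49.7 and 37.5 CPM (-2.51 ± 0.21).

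The chromosomal passenger complex, which corrects faulty spindle attachments, fell with 4 of 4 members. Its kinase Aurkb went from 119 and 105 to 53.4 and 49.2 CPM (-1.13 ± 0.13). The kinetochore genes (7 of 7, median -1.54), the spindle genes (7 of 7, -2.02) and the cytokinesis genes (7 of 7, -1.86) fell as well. Cenpe, a kinetochore motor, went from 256 and 312 to 72.1 and 70.1 CPM, and Kif11, the motor that separates spindle poles, from 353 and 374 to 134 and 139 CPM. Kif20a, a midzone motor, went from 240.3 and 237 to 66.3 and 56.9 CPM. The 7 chromosome structure genes had the smallest median, -1.01: Top2a, the topoisomerase that untangles sister DNA, went from 603 and 639.8 to 309 and 309 CPM, Smc4 of condensin from 498 and 517 to 284 and 247 CPM and Mki67, which coats mitotic chromosomes, from 677 and 828 to 356 and 343 CPM. Each gene named here had lower levels in both hypoxic libraries than in either normoxic one.

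Of the 4 checkpoint genes 3 fell. Bub1b, the checkpoint protein BubR1, went from 205 and 228 to 70.5 and 69.6 CPM (-1.63 ± 0.12), and Mad2l1 and Ttk fell too. Bub1, the kinase that recruits BubR1 to kinetochores, was the 1 member that did not pass the test: it was at 101 and 116 CPM in normoxia and 89.6 and 103 CPM in hypoxia (-0.16 ± 0.14 (SE), edgeR adjusted p = 0.323), and its groups overlapped.

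BV2 recovered from co-culture with GL261 gave 47 of 47 members lower in hypoxia (67.3% of all genes called, 32.1% lower), with a median log2 fold change of -1.83. The sum went from 7846 and 8001 to 3266 and 2085 CPM. Plk1 was again lowest (-3.16 ± 0.18) and Bub1 again least changed, though here it passed the test, at 94.2 and 91.9 CPM in normoxia and 81 and 59.1 CPM in hypoxia (-0.41 ± 0.14 (SE), edgeR adjusted p = 0.0179). With any 1 of the 4 libraries left out, 46 or 47 members were called lower. Genes that mark GL261 stood, by their median, at 0.952% and 0.565% of their GL261 monoculture level in the normoxic and at 2.07% and 2.33% in the hypoxic co-cultured BV2 libraries. If taken as the share of GL261 RNA, these would hold, at the mitotic levels of GL261 alone, 1.12% and 0.676% of the members' sum in normoxia and 7.69% and 13.5% in hypoxia.

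In the third table, BV2 with DMSO showed 46 of 47 members lower in hypoxia (37.5% of all genes called, 20.2% lower), with a median of -2.03. The sum went from 5683 and 7639 to 1040.2 and 2264 CPM, and the 2 hypoxic libraries differed by a larger ratio than the normoxic ones. Aspm, a spindle pole protein, was lowest: 117 and 113 CPM in normoxia and 6.45 and 13.8 CPM in hypoxia (-3.50 ± 0.36 (SE), edgeR adjusted p = 0.000212). Bub1 was again the member that did not pass (-0.42 ± 0.29, adjusted p = 0.279), at 57.2 and 72.7 CPM in normoxia and 34 and 63.3 CPM in hypoxia. The 46 genes called lower with DMSO were those called lower in BV2 alone in the first table.

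**Figure D3:**
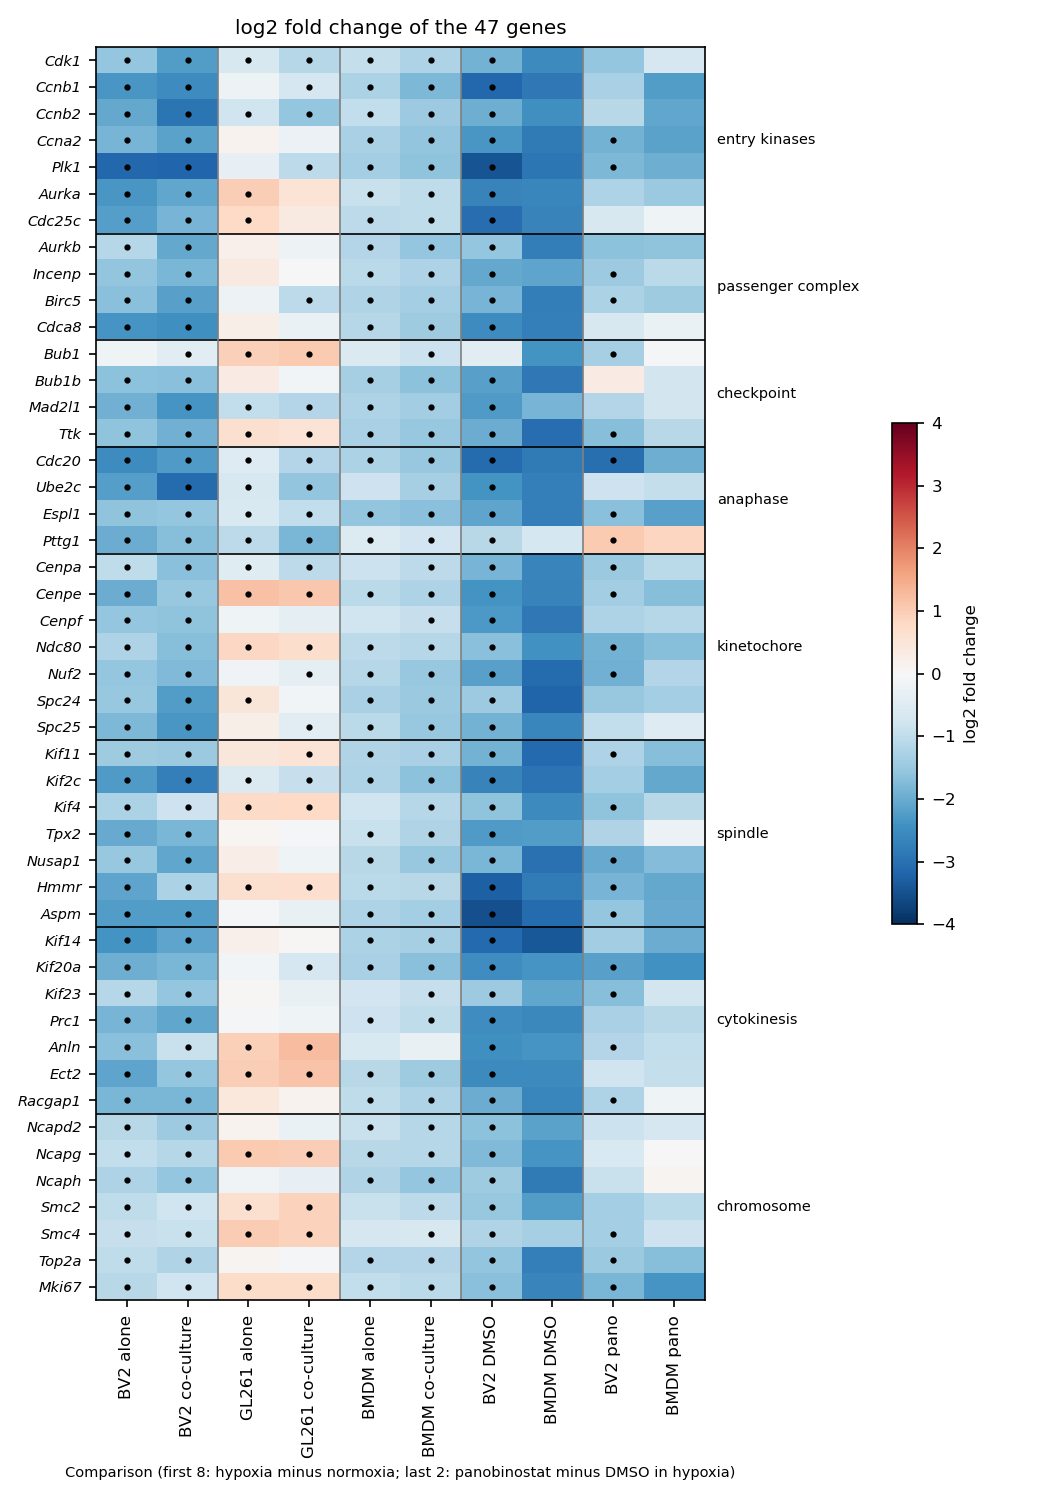
Colour gives the log2 fold change of each of the 47 genes (rows, by role) in 10 comparisons (columns; the first 8 are hypoxia minus normoxia, the last 2 panobinostat minus DMSO in hypoxia), and a black dot marks an edgeR adjusted p under 0.05. All values are negative in the BV2 hypoxia columns, Pttg1 and Bub1b are positive in BV2 with panobinostat, both GL261 columns hold both signs, and the BMDM columns of the panobinostat table carry no dots.

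GL261 did not follow this pattern. Grown alone, its summed mitotic level was 9514 and 9454 CPM in normoxia and 13524 and 10072 CPM in hypoxia. In hypoxia 15 members rose, 9 fell and 23 did not pass the test (44.6% of all 15189 tested genes called, 23.2% higher and 21.4% lower), with a median of 0.19 against -0.03 for all genes. The shares of members called in each direction, 15 and 9 of 47, lay near those of all genes.

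By role, the calls in GL261 were split. All 4 anaphase triggers fell: Cdc20 (-0.53 ± 0.18), the ubiquitin-conjugating enzyme Ube2c (-0.65 ± 0.18), separase, Espl1 (-0.61 ± 0.15), and its inhibitor securin, Pttg1. Pttg1 was the lowest member, at 107 and 83.7 CPM in normoxia and 49.4 and 42.2 CPM in hypoxia (-1.06 ± 0.14 (SE), edgeR adjusted p = 0.000181). Cdk1 fell from 340.4 and 296 to 217 and 191 CPM (-0.64 ± 0.14 (SE), edgeR adjusted p = 0.00318), Ccnb2 fell, and Ccnb1 (128 and 139 CPM, then 135 and 98.5 CPM) and Plk1 (224 and 189 CPM, then 194 and 135 CPM) did not pass. Mad2l1, Cenpa and Kif2c were the other members that fell.

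Of the 7 chromosome structure genes 4 rose and 3 did not pass. Smc4 rose from 538 and 496 to 1043 and 1032 CPM (1.01 ± 0.13 (SE), edgeR adjusted p = 0.000151), and Mki67 from 815 and 932 to 1700.0 and 1176 CPM (0.72 ± 0.19), with Ncapg and Smc2. Top2a was at 952 and 1003 CPM in normoxia and 1166 and 959 CPM in hypoxia, overlapping, and did not pass. Cenpe was the highest member, rising from 207 and 192 to 569.9 and 333 CPM (1.18 ± 0.24 (SE), edgeR adjusted p = 0.00249). Bub1, the member that did not pass in BV2, rose from 91.4 and 91.4 to 207 and 147 CPM (0.96 ± 0.16). Aurka, a centrosome kinase, rose from 119 and 92.7 to 265 and 156 CPM (0.99 ± 0.25), as did Cdc25c, Ttk, Ndc80, Spc24, Kif4, Hmmr, Anln and Ect2. Aurkb (84.8 and 84.3 CPM, then 104 and 89.3 CPM), Bub1b (109 and 112 CPM, then 158 and 117 CPM), Kif11 (117 and 130.4 CPM, then 201 and 137 CPM) and Kif20a (271 and 248 CPM, then 301 and 175 CPM) did not pass. Hypoxic replicate 1, the deeper library, lay above replicate 2 for nearly all members. Without it 10 members rose and the median was -0.035, without hypoxic replicate 2 20 rose, and without normoxic replicate 1 5 members fell in place of 9.

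In GL261 from co-culture with BV2, 13 members rose and 15 fell in hypoxia (52.4% of all genes called, 26.8% higher and 25.6% lower), with a median of -0.16. The sum was 9868 and 10144 CPM in normoxia and 11895 and 9665 CPM in hypoxia. All 9 members that fell in GL261 alone fell here too, joined by Ccnb1, Plk1, Birc5, Nuf2, Spc25 and Kif20a, and 12 of the 15 that rose alone rose here, joined by Kif11. Pttg1 was lowest, going from 113 and 117 to 32.5 and 32 CPM (-1.84 ± 0.15 (SE), edgeR adjusted p = 3.82e-06), and Anln, a scaffold of the contractile ring, was highest, going from 427 and 439 to 1147 and 887 CPM (1.23 ± 0.22 (SE), edgeR adjusted p = 0.000647). Plk1 fell from 242 and 236 to 139 and 93 CPM, and Cdc20 from 409.8 and 392 to 202 and 151 CPM. Without hypoxic replicate 1 of the co-culture 8 members rose in place of 13 and the median was -0.30, and without hypoxic replicate 2 it was -0.016. Across the 47 genes, exonic length and log2 fold change had a Spearman correlation of 0.22 in GL261 alone and 0.38 in co-culture. Over 12546 coding genes it was 0.23 and 0.34, a description across genes of the same libraries. In BV2 it was 0.28 alone, 0.51 in co-culture and -0.03 with DMSO, against 0.10, 0.21 and 0.05 over coding genes. In BMDM it was 0.16, 0.38 and 0.05, against 0.04, 0.05 and -0.04.

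The test of the difference between the cell lines separated nearly all members. In 1 fit of all 16 libraries of the first table, the hypoxia effect on 46 of 47 members was lower in BV2 than in GL261 when both were grown alone (37.4% of all 16882 tested genes called, 18.7% lower), with a median difference of -1.83 on the log2 scale against 0.15 for all genes. Aurka differed most (-3.23 ± 0.32 (SE), edgeR adjusted p = 6.2e-07): in BV2 it went from 174 and 155 to 35.3 and 30.0 CPM, while in GL261 it rose. Cenpe (-3.08 ± 0.34), Ect2, the exchange factor that activates the cleavage furrow (-2.99 ± 0.29), and Plk1 (-2.71 ± 0.31) differed nearly as much. Cdk1, which fell in both lines, differed least of the members called (-0.79 ± 0.22 (SE), edgeR adjusted p = 0.00728). Cenpa, the centromeric histone, was the 1 member not called (-0.43 ± 0.18 (SE), edgeR adjusted p = 0.0727). From co-culture the effect was lower in BV2 for 45 members (37% of all genes called, 15.3% lower), most for Ect2 (-2.56 ± 0.29 (SE), edgeR adjusted p = 3.69e-06), and Espl1 and Pttg1 were not called, Pttg1 being the 1 member with a positive difference (0.26 ± 0.20 (SE), edgeR adjusted p = 0.325). With any 1 library left out, between 44 and 47 members were lower for cells alone, and between 41 and 45 for co-culture.

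**Figure D4:**
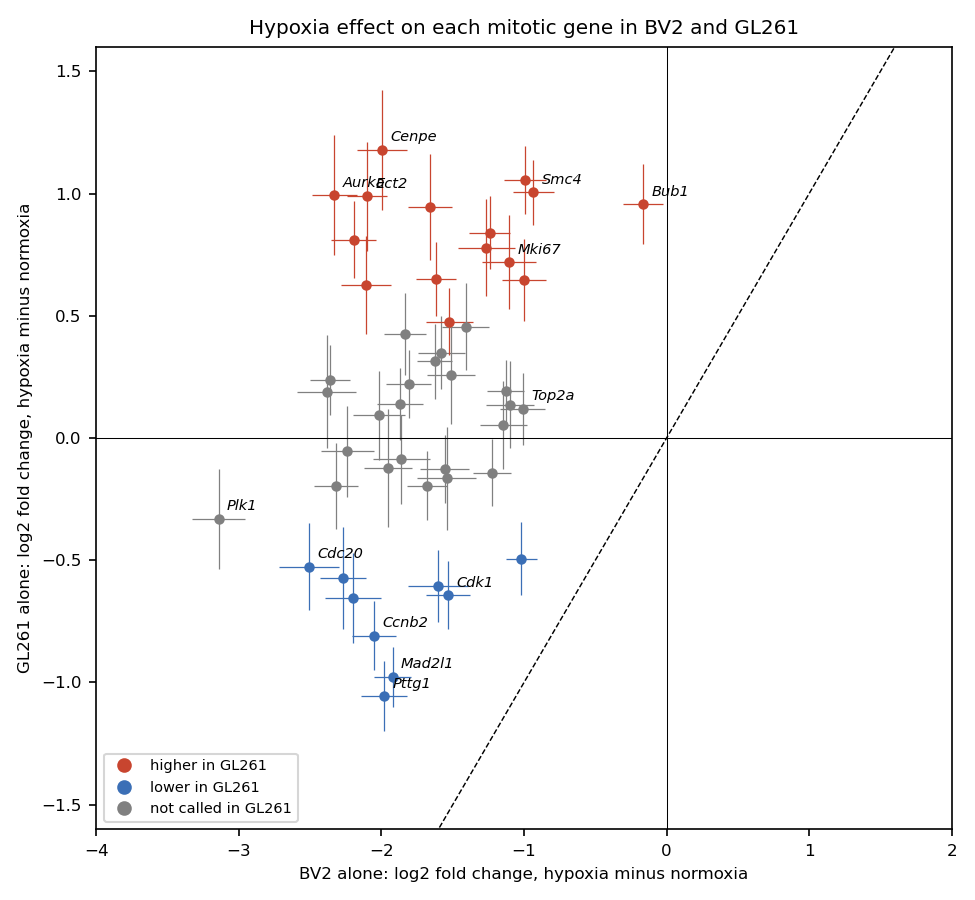
Each point is 1 of the 47 genes, with the log2 fold change in hypoxia of BV2 alone (x axis) and GL261 alone (y axis); bars are standard errors, colours give the call in GL261, and the dashed line marks equal effects. All points lie above the line and left of 0, from Plk1 at -3.14 in BV2 to Bub1 at -0.16, while in GL261 they run from Pttg1 at -1.06 to Cenpe at 1.18.

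The macrophages of the second table resembled BV2 in direction, with smaller fold changes; their table was normalised separately, so the values are set side by side with no test. In BMDM grown alone, 38 members fell and 9 did not pass in hypoxia (23.9% of all 14806 tested genes called, 10.6% lower), with a median of -1.08, and the sum went from 7946 and 7173 to 3205 and 4177 CPM. The 9 that did not pass were Bub1, Ube2c, Cenpa, Cenpf, Kif4, Kif23, Anln, Smc2 and Smc4. All 47 members were lower in both hypoxic than in both normoxic libraries. The share of all genes separating in this way was not counted, so this adds no support for the 9. Espl1 was lowest (-1.58 ± 0.23 (SE), edgeR adjusted p = 0.00114) and Pttg1 highest, at 18.2 and 18.9 CPM in normoxia and 13.9 and 11.5 CPM in hypoxia (-0.55 ± 0.18 (SE), edgeR adjusted p = 0.0437). Plk1 went from 214 and 182 to 71.6 and 82.9 CPM, Cdk1 from 168 and 147 to 76.7 and 85.7 CPM and Mki67 from 1005 and 999.9 to 417 and 597 CPM. With 2 libraries a group the count leaned on single libraries: it was 5 without hypoxic replicate 1, 25 without hypoxic replicate 2, 11 without normoxic replicate 1 and 27 without normoxic replicate 2.

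BMDM from co-culture, with 3 libraries a group, had 46 members lower in hypoxia (34.8% of all genes called, 17.3% lower) and a median of -1.31. The sum was 8286, 5281 and 6526 CPM in normoxia and 3706, 2159 and 2752 CPM in hypoxia. Ccnb1 was lowest, at 107, 75.7 and 95.5 CPM in normoxia and 25.8, 24 and 29.7 CPM in hypoxia (-1.81 ± 0.17 (SE), edgeR adjusted p = 3.83e-05). Anln was the exception, at 71.2, 46.3 and 60.4 CPM and 41, 44.4 and 58.2 CPM, overlapping (-0.31 ± 0.21 (SE), edgeR adjusted p = 0.278). The other panel genes fell: Plk1 from 216, 130.2 and 194 to 66.6, 48.5 and 60.5 CPM, Top2a from 760.1, 459.8 and 576 to 363, 187 and 239 CPM and Smc4 from 269, 174 and 269.7 to 181, 120.4 and 151 CPM. Between 43 and 46 members were called lower when any 1 co-culture library was left out. Genes that mark GL261 stood at 1.34%, 2.16% and 3.71% of their GL261 level in the normoxic and at 1.66%, 3.19% and 5.94% in the hypoxic libraries, with the level of GL261 taken from the first table. Taken as shares of GL261 RNA, the hypoxic values would hold 5.41%, 18.9% and 24.9% of the members' sum. Per kilobase of exon, Anln stood at 99.9 CPM in hypoxic GL261 alone and at 5.83 CPM in hypoxic BMDM alone. The part of GL261 RNA in the levels of Anln and other single genes was not tested.

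Fewer members were called between co-culture and monoculture. In normoxic BV2, co-culture against monoculture gave 4 members lower (Ect2, Anln, Aspm and Bub1b) and 1 higher, Pttg1 (0.45 ± 0.14 (SE), edgeR adjusted p = 0.0389), where 14.9% of all genes were called (5.77% higher and 9.14% lower); Ect2 was lowest (-0.63 ± 0.13 (SE), edgeR adjusted p = 0.00618). Leaving out a library lowered these counts to between 0 and 4 lower and 0 higher: 0 lower without monoculture replicate 2, and 1 without either co-culture replicate. In hypoxic BV2, 15 members were lower and 1 higher, again Pttg1, where 15.7% of all genes were called (8.13% higher and 7.57% lower). Pttg1 was at 4.01 and 3.95 CPM alone and 7.02 and 6.18 CPM in co-culture (0.73 ± 0.18 (SE), edgeR adjusted p = 0.00895). Aurkb was lowest, at 53.4 and 49.2 CPM alone and 29.5 and 22.7 CPM in co-culture (-0.97 ± 0.14 (SE), edgeR adjusted p = 0.000124). The hypoxic count was 37 lower without co-culture replicate 1, 5 without co-culture replicate 2 and 7 without monoculture replicate 1, and the co-culture libraries were the ones whose sums differed (3266 and 2085 CPM). Pttg1 stood at 107 and 83.7 CPM in normoxic GL261 alone, and lower in hypoxic GL261 alone, at the levels given above. GL261-marking RNA was present in these co-cultured BV2 libraries at the shares given above. The part of GL261 RNA in the rise of Pttg1 was not tested.

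The change of the hypoxia effect with co-culture, tested as an interaction in BV2, was called for 2 members, Aurkb (-0.92 ± 0.18 (SE), edgeR adjusted p = 0.0232) and Cenpa (-0.66 ± 0.15 (SE), edgeR adjusted p = 0.0384), both falling further in co-culture, where 2.19% of all genes were called. This count was 16 without hypoxic co-culture replicate 1, 6 without hypoxic monoculture replicate 2, 1 without replicate 1 of either monoculture and 0 without replicate 2 of either normoxic group. In GL261 no member was called between co-culture and monoculture in normoxia (0 by edgeR and 0 by DESeq2, 3 at an unadjusted p under 0.05, 0.514% of all genes called) or in hypoxia (0 by edgeR and 1 by DESeq2, 9 unadjusted, 1.39% called, 0.889% higher and 0.5% lower), nor for the interaction (0 by edgeR and 1 by DESeq2, 11 unadjusted, 0% called). In BMDM the same held in normoxia (0 by edgeR and 1 by DESeq2, 1 unadjusted, 1.64% called, 1.57% higher and 0.0675% lower), in hypoxia (0 by edgeR and 2 by DESeq2, 7 unadjusted, 7.11% called, 4.06% higher and 3.05% lower; 5 lower without hypoxic co-culture replicate 1) and for the interaction (0 by edgeR, 0 by DESeq2, 0 unadjusted, 0% called). The extremes had adjusted p-values above the threshold: in hypoxia Ube2c was lowest in GL261 (-0.63 ± 0.18 (SE), edgeR adjusted p = 0.136) and Kif4 in BMDM (-0.86 ± 0.27 (SE), edgeR adjusted p = 0.0828).

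Panobinostat was given only in hypoxia, so its comparison shares the hypoxic DMSO libraries with the hypoxia comparison of the same cells and starts from their lowered level. In BV2, 24 members fell further with panobinostat, 1 rose and 22 did not pass (14.6% of all 13294 tested genes called, 7.21% higher and 7.39% lower), with a median of -1.35 against -0.01 for all genes. The sum was 1040.2 and 2264 CPM with DMSO and 569.8 and 766 CPM with panobinostat. Cdc20 fell most: it was at 180.3 and 301 CPM in normoxia, 18.2 and 38.6 CPM in hypoxia and 2.82 and 4.18 CPM with panobinostat (-3.01 ± 0.42 (SE), edgeR adjusted p = 0.00334). The panobinostat libraries lay below both DMSO libraries for this gene.

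Members of every role were among those that fell, from 5 of 7 spindle genes to 2 of 7 entry genes, too few to rank the roles. Kif20a went from 18.7 and 48.7 to 4.99 and 10.0 CPM (-2.16 ± 0.47 (SE), edgeR adjusted p = 0.0169), Mki67 from 137 and 289.6 to 44 and 76.1 CPM (-1.83 ± 0.37 (SE), edgeR adjusted p = 0.0131) and Top2a from 70.3 and 172 to 35.4 and 51.5 CPM (-1.48 ± 0.39 (SE), edgeR adjusted p = 0.0321). Plk1, Cenpe, Kif11 and Smc4 of the panel fell as well. Bub1, which had not passed in the hypoxia comparison, fell here from 34 and 63.3 to 17.7 and 20.7 CPM (-1.34 ± 0.30 (SE), edgeR adjusted p = 0.0176). Cdk1 (6.29 and 25 CPM, then 4.51 and 6.2 CPM, adjusted p = 0.0784), Ccnb1 (8.88 and 20.3 CPM, then 4.43 and 7.5 CPM, adjusted p = 0.0603) and Aurkb (adjusted p = 0.0683) did not pass.

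Securin and BubR1 were the 2 members with a positive log2 fold change for panobinostat in BV2, and only securin passed the test. Pttg1 was the 1 member that rose: it was at 10.6 and 12.2 CPM in normoxia, 4.4 and 6.13 CPM in hypoxia and 10.2 and 11.7 CPM with panobinostat (1.05 ± 0.29 (SE), edgeR adjusted p = 0.0402). Both panobinostat libraries lay above both DMSO ones, at about the normoxic level. This call was lost without DMSO replicate 1 and without either panobinostat replicate. Bub1b was at 27 and 51.5 CPM with DMSO and 49.2 and 49 CPM with panobinostat (0.32 ± 0.30 (SE), edgeR adjusted p = 0.495), and did not pass. The count of members lower was 42 without DMSO replicate 1, 8 without DMSO replicate 2, 3 without panobinostat replicate 1 and 11 without panobinostat replicate 2. The median was -1.82 without DMSO replicate 1 and -0.58 without DMSO replicate 2. DMSO replicate 1 had the lower mitotic sum of the 2, and with the replicate number as a block the count was 43.

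**Figure D5:**
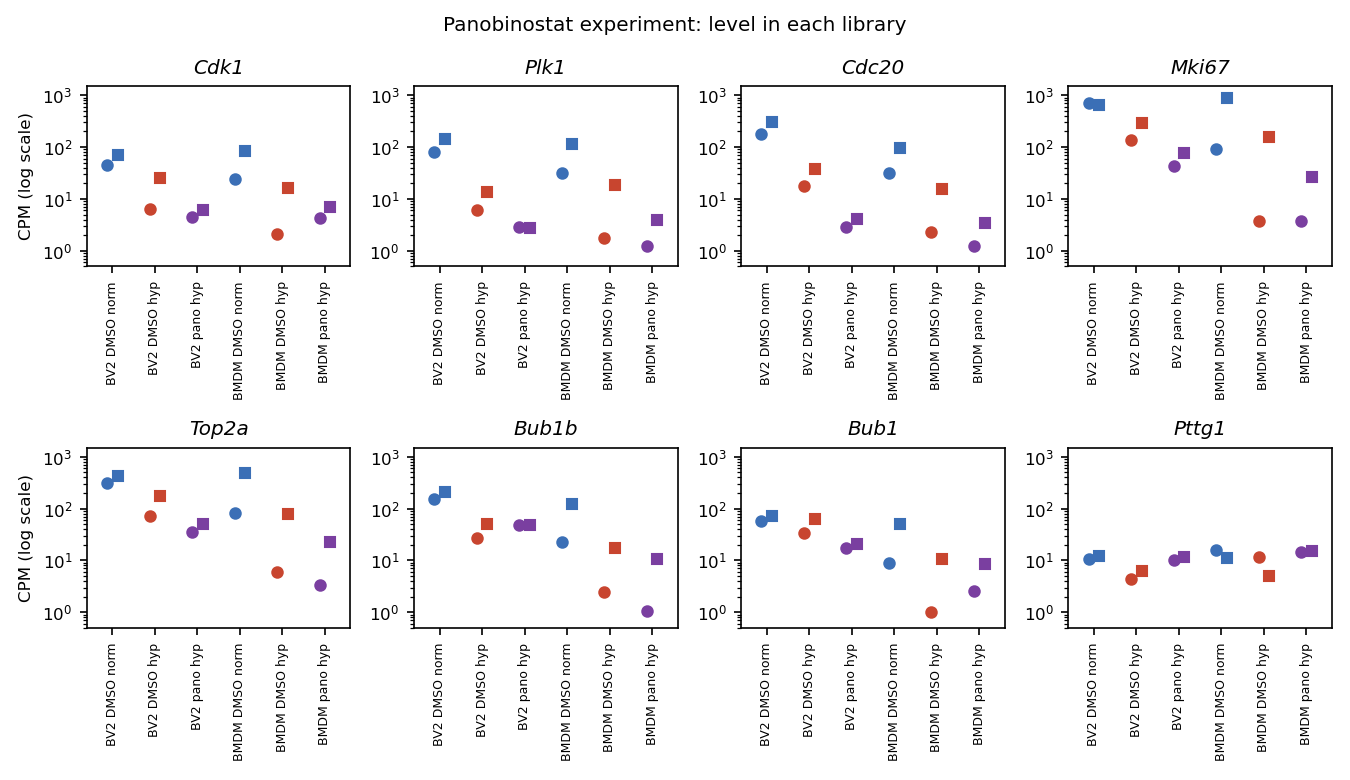
Level of 8 genes (CPM, log axis shared by all panels) in the 12 libraries of the panobinostat table, with circles for replicate 1, squares for replicate 2, and colours for DMSO in normoxia (blue), DMSO in hypoxia (red) and panobinostat in hypoxia (purple). In BV2 Cdc20 steps down from 180.3 and 301 CPM to 2.82 and 4.18 CPM, Pttg1 goes from 4.4 and 6.13 CPM with DMSO in hypoxia to 10.2 and 11.7 CPM with panobinostat, and the BMDM circles lie below the squares for every gene but Pttg1.

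In BMDM with DMSO all 47 members had negative log2 fold changes in hypoxia, with a median of -2.67, and none was called by edgeR, where 0.483% of all 14914 tested genes were called and 0.0134% were called lower. At an unadjusted p under 0.05 there were 10, DESeq2 called 10, and with the replicate number as a block edgeR called 44. The median rested on single libraries: it was -1.13 without normoxic replicate 2, -1.83 without hypoxic replicate 1, -3.43 without normoxic replicate 1 and -5.38 without hypoxic replicate 2. The sums were 1150.4 and 5524 CPM in normoxia and 152 and 1042 CPM in hypoxia. Within replicate 1, 13.2% of the sum was left in hypoxia, and within replicate 2, 18.9%. Mki67 shows the spread: it was at 93.7 and 879.6 CPM in normoxia and 3.71 and 153 CPM in hypoxia (-2.64 ± 1.82 (SE), edgeR adjusted p = 0.389), so that the hypoxic replicate 2 lay above the normoxic replicate 1. Plk1 was at 31.4 and 117 and then 1.79 and 18.3 CPM. Kif14, a midzone motor, was lowest (-3.39 ± 1.90) and Pttg1 highest (-0.70 ± 0.45), and neither passed.

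With panobinostat, hypoxic BMDM had 44 members with a negative log2 fold change (median -1.12), and 0 were called by edgeR, 0 by DESeq2 and 0 at an unadjusted p under 0.05, where 0% of all genes were called. With the replicate number as a block edgeR called 6 lower. The sums were 152 and 1042 CPM with DMSO and 149.9 and 402 CPM with panobinostat. Replicate 1 had 98.9% of its DMSO sum left and replicate 2 had 38.6%, and without DMSO replicate 2 the median turned to 1.81, while it was -2.09 without DMSO replicate 1, -0.47 without panobinostat replicate 1 and -2.86 without panobinostat replicate 2. In replicate 1 of both groups 3 members had no count, and 40 of the 47 lay above the level of 3 counts. Kif20a was lowest (-2.43 ± 1.20 (SE), edgeR adjusted p = 0.26), and Pttg1 was highest, at 11.5 and 5.1 CPM with DMSO and 14.4 and 15.5 CPM with panobinostat (0.85 ± 0.45 (SE), edgeR adjusted p = 0.288). The Pttg1 groups did not overlap, as in BV2, but the difference did not pass. Fibroblast and macrophage marker sums moved across these libraries as given above, and their part in the members' levels was not tested.

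Tested directly in 1 fit of the third table, no member was called as different between BV2 and BMDM in its hypoxia effect (0 by edgeR, 0 by DESeq2 and 0 at an unadjusted p under 0.05, 0.664% of all genes called, median difference 0.62) or in its panobinostat effect (0 by edgeR, 0 by DESeq2 and 0 unadjusted, 0.0251% called, median difference -0.20). Both medians turned sign with 1 library left out. That of the hypoxia effects ran from -0.93 without normoxic BMDM replicate 2 to 3.24 without hypoxic BMDM DMSO replicate 2, and was also negative without hypoxic DMSO replicate 1 of BMDM (-0.17) or replicate 2 of BV2 (-0.11). That of the panobinostat effects ran from -3.39 without hypoxic BMDM DMSO replicate 2 to 1.01 without BMDM panobinostat replicate 2, and was also positive without hypoxic DMSO replicate 1 of BMDM (0.63) or replicate 2 of BV2 (0.41). With the spread of these BMDM libraries, a missing call does not show that the cells acted alike: for Plk1 the difference of the hypoxia effects was -0.47 ± 1.28 (SE), and for Bub1, the furthest in the other direction, 2.08 ± 1.34.

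Normoxic levels were compared as well. Between BV2 and GL261 grown alone, 17 members were higher and 10 lower in BV2 (73.2% of all genes called, 33.8% higher and 39.4% lower). Kif11 was highest (1.67 ± 0.19 (SE), edgeR adjusted p = 2.91e-07) and Pttg1 lowest (-2.48 ± 0.14 (SE), edgeR adjusted p = 7.06e-12), the latter at 15.7 and 15.8 CPM in BV2 and 107 and 83.7 CPM in GL261. Between BV2 and BMDM with DMSO in normoxia 0 members were called by edgeR (2 higher by DESeq2, 1 at an unadjusted p under 0.05), where 44.2% of all genes were called. With the replicate block 40 were higher, but the block was set within each cell type. That fit therefore compares the fitted replicate 1 levels of the cells, not the group means. Its median difference was 2.28, against 0.87 in the main fit. Per kilobase of exon, Cdc20 was the most abundant member in normoxic BV2 (133 ± 3.92 CPM per kb, SD, n = 2) and GL261 (171 ± 11.0), and Ccnb2 in BMDM (122 ± 5.44). In hypoxic BV2, Cdc20 no longer led and Smc4 had the highest level (50.9 ± 5.05 CPM per kb), and Smc4 led in hypoxic GL261 as well (199 ± 1.54). Kif14 was the lowest member per kilobase in GL261 and BMDM (3.67 ± 0.477 and 3.60 ± 0.283 in normoxia), and Cdc25c in BV2 (5.80 ± 0.531).

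Other genes of the mitotic programme were read from lists of 151 further genes. Of 65 further mitotic genes, 63 fell and 1 rose in hypoxic BV2 alone (median -1.52). The one that rose was Hjurp, the chaperone that loads Cenpa (0.43 ± 0.11 (SE), edgeR adjusted p = 0.00381), and the lowest was the lamin Lmnb1 (-2.92 ± 0.15). In GL261 alone 23 rose and 16 fell (median 0.14), from Sapcd2 (-1.24 ± 0.12) to Nsl1, a subunit of the kinetochore's MIS12 complex (1.49 ± 0.17). In BMDM 42 fell alone and 60 in co-culture, and with panobinostat 23 fell in BV2. Beside these counts and those of the lists below stand the calls over all tested genes, in either direction. They were 8931 of 14432 in BV2 alone, 6777 of 15189 in GL261 alone and 1941 of 13294 with panobinostat in BV2. In BMDM they were 3542 of 14806 alone and 5154 in co-culture. The shares by direction are given with each comparison above. Cohesin and its regulators, which hold sister chromatids together, had 7 of 12 lower and 1 higher in BV2 alone (median -0.47). In GL261 alone 5 of 12 rose. Core subunits of the anaphase-promoting complex are present through much of the cell cycle. Their list, which also held the co-activator Fzr1 and the ubiquitin-conjugating enzyme Ube2s, had a median of -0.52 in BV2 alone. This was against -0.10 for GL261 alone, -0.21 for BMDM alone and -0.01 with panobinostat in BV2.

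Both activators fell in BV2 and BMDM. Foxm1 went from 135 and 121 to 41.1 and 39.6 CPM in BV2 alone (-1.67 ± 0.16 (SE), edgeR adjusted p = 1.53e-07), and from 135 and 148 to 57.5 and 74.3 CPM in BMDM alone (-1.10 ± 0.28 (SE), edgeR adjusted p = 0.0161). In GL261 alone it was at 181 and 184 CPM in normoxia and 248 and 171 CPM in hypoxia, and did not pass (0.20 ± 0.17 (SE), edgeR adjusted p = 0.364). Mybl2 fell in BV2 (-1.53 ± 0.16) and BMDM (-1.48 ± 0.23) alone and in GL261 alone did not pass (edgeR adjusted p = 0.997). E2f1, a G1/S activator, fell in BV2 alone (-0.55 ± 0.14). In BV2 with DMSO E2f1 did not pass in the main fit, but did with the replicate block (-0.68, edgeR adjusted p = 0.00483). In GL261 the DREAM subunit Lin54, which reads the CHR, was the highest of the regulators, at 33.6 and 39.9 CPM in normoxia and 113 and 85 CPM in hypoxia (1.43 ± 0.16 (SE), edgeR adjusted p = 5.25e-05), and Nfya, a subunit of the CCAAT-binding factor, the lowest (-1.22 ± 0.13 (SE), edgeR adjusted p = 4.3e-05). With panobinostat in BV2, Foxm1 (-1.40 ± 0.29) and Mybl2 (-1.48 ± 0.42) fell further, the repressor E2f7 had the lowest value of the regulators without passing (-1.80 ± 0.60 (SE), edgeR adjusted p = 0.0721), and Tfdp2 rose (1.22 ± 0.28).

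Cdkn1a, which encodes the CDK inhibitor p21, rose in BV2, from 44 and 41 to 569 and 525 CPM (3.68 ± 0.13 (SE), edgeR adjusted p = 9.34e-12). It rose in GL261, from 125 and 106 to 423 and 361 CPM (1.76 ± 0.15 (SE), edgeR adjusted p = 1.14e-05), and in BMDM alone from 491 and 534 to 857 and 979 CPM (0.84 ± 0.25 (SE), edgeR adjusted p = 0.0323). It did not pass in BMDM from co-culture (0.44 ± 0.20 (SE), edgeR adjusted p = 0.114) or in BMDM with DMSO (1.11 ± 0.52 (SE), edgeR adjusted p = 0.236). The rise in BV2 exceeded that in GL261 when the difference was tested (2.02 ± 0.20 (SE), edgeR adjusted p = 4e-07). With panobinostat it was 520.1 and 493 CPM in BV2 against 706 and 533 CPM with DMSO, and did not pass (-0.29 ± 0.30 (SE), edgeR adjusted p = 0.554). Upstream of mitosis, the 6 MCM genes of the replicative helicase fell with 6 of 6 in BV2 alone (median -1.43) and in BMDM alone (median -1.53), and in GL261 alone Mcm3 rose and the other 5 did not pass. Ccne1, cyclin E, was the lowest of the G1 and G1/S genes in BV2 (-2.06 ± 0.14) and in BMDM alone (-1.97 ± 0.28).

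Members with and without a CHR in their window had medians of the same sign in BV2 and of opposite sign in GL261 alone, a description over few genes. In BV2 alone the median log2 fold change was -1.63 for the 31 genes with a CHR in their window and -1.80 for the 8 without. In GL261 alone it was 0.22 and -0.17, and in GL261 from co-culture both were negative, at -0.11 and -0.53. Only Ccnb1 shared over 5% of its 75-base words with another locus (18.9%, with Ccnb1-ps), so its counts are uncertain to that extent. In the GENCODE M21 annotation of GRCm38 (mm10), 11 members had exons overlapped by a gene on the other strand, the largest shares being Kif20a (29.3%, Cdc23), Ube2c (22.8%, Tnnc2), Kif4 (15.1%, Pdzd11), Ncapg (13.4%, Lcorl), Cdc25c (12.7%) and Ccna2 (12.5%). The kit marked strand, and whether the counting used it is not given in the sources used here. The members spread over the genome: for example Plk1 lies at chr7:122159439-122169873, Bub1 at chr2:127801122-127831865, Cenpe at chr3:135212537-135273611 and Pttg1 at chr11:43420250-43426251.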

How the data were processed

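The deposited tables hold raw counts per gene, whole numbers that the authors did not normalise. Per the submitters' processing notes, Trimmomatic 0.36, STAR 2.6 and HTSeq 0.9.1 were used with the mm10 genome, and Picard 2.17.1 is named for part of the samples; the annotation release and the strand setting of the counting are not given in the sources used here. From these counts, edgeR 4.0.16 (R 4.3.3) was run with TMM scaling, genes kept by filterByExpr (minimum count 10, minimum total 15), and the quasi-likelihood F test, in 1 fit per cell type of a table, and in 1 fit of both cell types for differences between them. P-values were adjusted by Benjamini-Hochberg over all tested genes, with a threshold of 0.05, and fold changes are log2. Totals of 9634700 to 27238933 counts per library limit the precision of low genes, and a level of 3 counts was taken as the floor.

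Groups and replicate numbers came from the sample labels. Numbers shared by hypoxic and normoxic BMDM co-cultures were read as pairing those libraries. The correlations of their deviations from the group means were 0.455, 0.244 and 0.407 in the 3 pairs. The main test used no block for any libraries. In the third table the correlations were 0.409 (DMSO, normoxia and hypoxia) and 0.593 (hypoxia, DMSO and panobinostat) in BMDM. In BV2 they were 0.389 and 0.364. With 2 libraries a group both numbers give the same correlation, so pairing was left undecided there. Named genes are a panel of 12, the member with the lowest and the highest value in each comparison, members against the main direction, Foxm1, Mybl2, E2f1, Cdkn1a, and the extremes of other lists; further members are named where a count is given by name. The members and all gene lists were chosen with earlier results of these data known. Alternatives were DESeq2 1.42.0 (Wald test), its size factors in edgeR, other filters on low values, a block for the replicate number, fits restricted to the compared groups, and leaving out each library. Scripts were tested on simulated data. Cell type markers were the fixed macrophage, glial, fibroblast, and lymphocyte and neutrophil lists. Partner RNA in co-cultures was read as the median level, relative to the partner monoculture, of genes exceeding 20 CPM in the partner and exceeding the other cell type by 100-fold. Promoter windows are RefSeq's.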

Additional observations from a re-analysis of the deposited data

Results flagged for a closer look

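The hypoxia effect differed between BV2 and GL261 by a direct test for 46 members in cells grown alone, from Aurka (-3.23 on the log2 scale) to Cdk1 (-0.79) among those called. From co-culture it differed for 45 members, from Ect2 (-2.56) to Cenpa (-0.50). Of all 16882 tested genes, 6322 were called for cells grown alone and 6243 from co-culture. Within BV2, the hypoxia effect differed between co-culture and monoculture for 2 members, Aurkb (-0.92) and Cenpa (-0.66). There 316 of all 14432 tested genes were called, and the count of members changed when single libraries were left out, as given above. No sample was tested as an outlier, since no group had more than 3 libraries.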

How the results depend on the processing

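Of 50 counts of members called higher or lower, 50 stayed within 1.5 times their value with DESeq2's size factors in edgeR. With the replicate number as a block, 43 did; the 7 others became 44 lower for hypoxia in BMDM with DMSO, 43 lower for panobinostat in BV2, 6 lower for panobinostat in BMDM, 3 lower for co-culture in hypoxic GL261, 1 higher for co-culture in normoxic BMDM, 40 higher in BV2 than BMDM in normoxia, and 1 higher for the BV2 minus BMDM hypoxia effect. The 40 compares fitted replicate 1 levels, because the block was set within each cell type. Where numbers were read as pairing the libraries, the hypoxia count of co-cultured BMDM stayed within 1.5 times under the block. In the other fits the mean correlation of same-numbered libraries was 0.033 (BV2 of the first table), 0.18 (GL261), 0.302 (BV2 of the third table) and 0.446 (BMDM of the third table).

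Without a filter beyond 1 count, members lower were 46 for hypoxia in BMDM with DMSO, 41 and 23 for panobinostat in BV2 and BMDM, 27 and 11 for co-culture in hypoxic and normoxic BV2, 7 and 2 for co-culture in hypoxic BMDM and GL261, and 8 and 1 for the change of the hypoxia effect with co-culture in BV2 and GL261; members higher were 25 for BV2 against BMDM, 3 for their hypoxia effects, 2 for co-culture in hypoxic BV2 and 2 for its hypoxia effect. DESeq2's Wald test gave 10 lower for hypoxia in BMDM with DMSO, 2 and 1 lower for co-culture in hypoxic BMDM and GL261, 1 higher and 0 higher for co-culture in normoxic BMDM and BV2, 2 higher for BV2 against BMDM, and, for the change of the hypoxia effect with co-culture, 4 lower and 2 higher in BV2 and 1 lower in GL261. Fitting only the groups compared gave 10 lower for co-culture in normoxic BV2, 1 higher in normoxic BMDM and 2 higher for BV2 against BMDM. A mean of at least 5 CPM gave 9 and 1 lower for co-culture in hypoxic and normoxic BV2, and turned the median BV2 minus GL261 difference in normoxia to -0.023. The cause of these changes was not tested.

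Leaving out 1 library gave 5 to 27 members lower in hypoxia for BMDM alone, 35 to 47 for BV2 with DMSO, 5 to 8 lower and 10 to 20 higher for GL261 alone, 8 to 15 higher and 11 to 15 lower for GL261 in co-culture, and 3 to 42 lower and 0 to 1 higher for panobinostat in BV2. For co-culture it gave 5 to 37 lower and 0 to 3 higher in hypoxic BV2, 0 to 4 lower and 0 higher in normoxic BV2, and 0 to 5 lower in hypoxic BMDM. It gave 0 to 16 lower and 0 to 3 higher for the hypoxia effect with co-culture in BV2, and 0 to 3 higher for BV2 against BMDM. Without hypoxic DMSO replicate 2 the panobinostat median in BMDM turned to 1.81, the highest of a range that began at -2.86; the median for hypoxia in GL261 alone turned to -0.035 without hypoxic replicate 1, and both BV2 minus BMDM medians turned sign, with ranges of -0.93 to 3.24 for hypoxia and -3.39 to 1.01 for panobinostat. With 1 library left in a group, that library is assumed to vary like the others. With 2 libraries a group and the spread of the third table's BMDM, a missing call there does not show that levels were equal, and counts near the floor in its replicate 1 limit the folds.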
